A study of Mus musculus with 6 samples.

Results

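The genes that drive and order the cell division cycle were examined in Neuro-2a cells, a mouse neuroblastoma line, transfected with polyglutamine-expanded TATA-binding protein (TBP) or with the empty vector. They were taken by symbol from the probe annotation: cyclins (Ccna to Ccnh), cyclin-dependent kinases with their partners and inhibitors (Cdk, Cdkn), genes of the Cdc series other than Cdc42 genes and Cdc37, the replicative helicase and origin genes (Mcm2 to Mcm9, Orc1 to Orc6), the kinases and checkpoint genes of mitosis (Plk1 to Plk4, Aurk, Bub), the anaphase-promoting complex or APC/C (Anapc), the centromere genes (Cenp) and the SMC genes of cohesin, condensin and the Smc5/6 complex. The rule found 93 of the 6788 genes on the array, represented by 137 cDNA clones, and used no measured value. Of these, 67 genes had a value on all 6 arrays, 14 on 5 arrays and 8 on 4 arrays, and these 89 were tested. Cdc14a, Cenpo and Smc2 had values on 3 arrays and Cdk6 on 2 arrays, and these 4 genes were not tested. Their values ran from -0.0798 to 1.11 for Cdc14a, -2.21 to 0.113 for Cenpo, -0.0171 to 0.362 for Smc2 and -0.553 to -0.427 for Cdk6 on the scale explained below. The 6 probes that match the rule but carry several gene symbols were left out. Ccnb1 and Cdkn1a are not among the members measured.

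The 59Q cells had been transiently transfected with GFP-tagged human TBP of CAG repeat length 59, and the N3 cells with the GFP vector pEGFPN3. Total RNA of both, taken 60 h after transfection, was hybridized together on each of 6 two-colour mouse cDNA arrays, with Cy5 for 59Q on replicates 1, 3, 4 and 6 and Cy3 for 59Q on the other 2, replicates 2 and 5. The series text counts 4 biological replicates and 2 flip-dye pairs without naming the arrays, so n here counts arrays and some of the 6 may share RNA, in which case p-values are too small. Both kinds of cells received GFP and kept their own mouse Tbp gene, and no TBP construct of normal repeat length was analysed here, so an effect of more TBP and an effect of the longer repeat cannot be told apart. The same holds for fewer cells in a phase of the cycle and less RNA per cell, since total RNA of a whole culture was measured.

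Cyclins are the regulatory subunits of the CDKs: D-type and E-type cyclins act in G1 and at entry into S phase, cyclin A2 in S and G2 phase, and B-type cyclins with Cdk1 in mitosis. The origin recognition complex and Cdc6 load the MCM helicase onto DNA before replication, cohesin (Smc1a, Smc3) then holds sister chromatids together, condensin (Smc2, Smc4) compacts them, and the kinetochore built on the centromere attaches them to the spindle. The APC/C ends mitosis by marking cyclins and the guardians of cohesion for degradation. Transcripts of many of these genes are known to be scarce in resting cells and abundant in S, G2 or M phase, so that they are used as markers of dividing cells, and Neuro-2a is a dividing tumour line. TBP, the transfected factor, is the subunit of the general transcription factor TFIID that contacts the TATA box and is also needed at promoters without one.

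Transcription of the cycle genes is known to run largely through promoters without a TATA box. G1/S genes carry sites for the E2F factors, and G2/M genes carry CCAAT boxes in tandem with the cell cycle genes homology region (CHR). A window from 250 bases before to 50 bases from the gene start was found in RefSeq (build GRCm38.p6) for 81 of the 93 genes. On either strand, TATAAA was present in the window of 3 of the 81 genes (3.70%), against 15.7% of all 27025 genes with such a window and 8.84% of the 5224 of them that are on this array. CCAAT was present in 50 (61.7%), against 41.1% and 43.1%. The CHR, searched as TTTGAA or TTCGAA, was present in 23 (28.4%), against 21.7% and 16.3%, and the E2F site, searched as TTTCGCGC, TTTGGCGC, TTTCCCGC or TTTGCCGC, in 14 (17.3%), against 2.60% and 5.38%. The sets overlap and the letters alone do not mark a used site. 4 promoters are shown from 140 bases before the start to its base 10, 5′ to 3′ on the gene's strand, with the searched motifs in capitals: a mitotic cyclin, the mitotic kinase it activates, a helicase subunit, and the single member with TATAAA at 20 to 40 bases before the start.
Ccnb2, chr9:70421545-70421694, minus strand: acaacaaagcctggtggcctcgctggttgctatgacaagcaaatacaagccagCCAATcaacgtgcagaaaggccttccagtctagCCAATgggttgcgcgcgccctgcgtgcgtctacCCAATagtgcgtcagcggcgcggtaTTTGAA
Cdk1, chr10:69352903-69353052, minus strand: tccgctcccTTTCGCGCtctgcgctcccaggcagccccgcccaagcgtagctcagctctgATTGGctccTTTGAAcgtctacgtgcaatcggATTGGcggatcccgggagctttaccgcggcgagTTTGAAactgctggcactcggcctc
Mcm6, chr1:128359696-128359845, minus strand: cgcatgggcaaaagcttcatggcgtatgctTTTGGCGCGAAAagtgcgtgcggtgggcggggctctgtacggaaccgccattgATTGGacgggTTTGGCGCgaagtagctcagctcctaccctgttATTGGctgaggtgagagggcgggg
Cdkn2aip, chr8:47713922-47714071, minus strand: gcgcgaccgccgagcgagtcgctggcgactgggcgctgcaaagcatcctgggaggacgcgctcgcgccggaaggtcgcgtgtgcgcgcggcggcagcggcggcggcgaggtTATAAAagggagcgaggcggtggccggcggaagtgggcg
The Ccnb2 window holds CCAAT 87, 54 and 21 bases before the start and TTTGAA from base 5. In Cdk1 the CCAAT boxes lie on the opposite strand, 80 and 48 bases before the start, with TTTGAA at 71 and 15 and the E2F site at 131. Mcm6 has an E2F site on each strand at 110 and 106, which overlap, another at 47, and CCAAT on the opposite strand at 57 and 14. Cdkn2aip, which encodes a protein that binds the tumour suppressor ARF, has TATAAA 29 bases before the start.

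The deposited value of a spot is a Z-ratio, the difference between the dyes after each was transformed to Z scores, scaled to a mean of 0 and an SD of 1 on every array. It has no fold scale and gives no level of any gene. Its direction is not stated, and the tests and counts over all members are therefore given under 2 readings. As deposited, a value above 0 is taken as higher in 59Q on all arrays, since the methods name 59Q as treated. In the second, the Cy5/Cy3 reading, the ratio is taken as Cy5 over Cy3 and the sign of replicates 2 and 5 is turned. For many single genes and some lists a mean or count is given under 1 reading only. Such a value does not show what the other reading gives. Values of a gene on 6 arrays are listed in the order of replicates 1, 3, 4 and 6 and then 2 and 5. Both readings give the 4 arrays with 59Q in Cy5 the same direction. Over all genes, arrays of the same dye orientation correlated at 0.0438 to 0.287 and arrays of opposite orientation at -0.452 to 0.0243. Values were missing for 0, 0, 23, 12, 2 and 6 of the 93 genes on replicates 1 to 6. Tbp, whose mouse clones can be met by the human construct, had Z-ratios of 2.92, -0.0977, 0.176 and 1.04 with 59Q in Cy5 and 2.31 and 1.74 with 59Q in Cy3.

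No cell cycle gene passed the test under either reading. As deposited, 0 of 89 genes were called by limma in either direction at an adjusted p under 0.05 (0% of all 6463 genes tested were called in each direction), and the smallest adjusted p of a member was 0.999. In the Cy5/Cy3 reading, 0 of 89 were called, where 0.263% of all genes were called higher and 0.0155% lower, and the smallest adjusted p of a member was 0.106, for Cdk20. The dye orientation difference, the mean with 59Q in Cy5 minus the mean with 59Q in Cy3, also gave 0 calls among the 89 and 0% in each direction among all genes. Before adjustment, 2 members as deposited had p under 0.05 above 0 and 0 below, against 0.975% and 1.64% of all genes. In the Cy5/Cy3 reading, 1 member lay above 0 and 14 (15.7%) below 0 at an unadjusted p under 0.05, against 6.42% and 13.4% of all genes. In the dye orientation difference 1 member lay above and 10 below 0 at that level, against 5.91% and 10.2% of all genes. A fit without moderation of the variances gave 0 calls as well. A p above the threshold does not show that the 59Q and N3 cells were alike.

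As a group the members followed the bulk of the array. The median of their mean Z-ratios was -0.0166 as deposited, with 41 genes above and 48 below 0, against -0.0449 over all genes, of which 56.9% lay below 0. In the Cy5/Cy3 reading the median was -0.157, with 24 genes above and 65 below 0 (73.0%), against -0.160 over all genes, of which 65.4% lay below 0. The median over the members was -0.192, -0.285, -0.0934 and 0.00310 on replicates 1, 3, 4 and 6 (59Q in Cy5) and 0.191 and 0.282 on replicates 2 and 5 (59Q in Cy3). Over all genes it was -0.152, -0.204, -0.117 and -0.0269 on replicates 1, 3, 4 and 6 and 0.124 and 0.210 on replicates 2 and 5. The members thus lay lower with 59Q in Cy5 than with 59Q in Cy3, as all genes did. Across the members that any 2 arrays share, Pearson's r was -0.358 to 0.296, as a description over genes, which are not independent replicates.

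**Figure D1:**
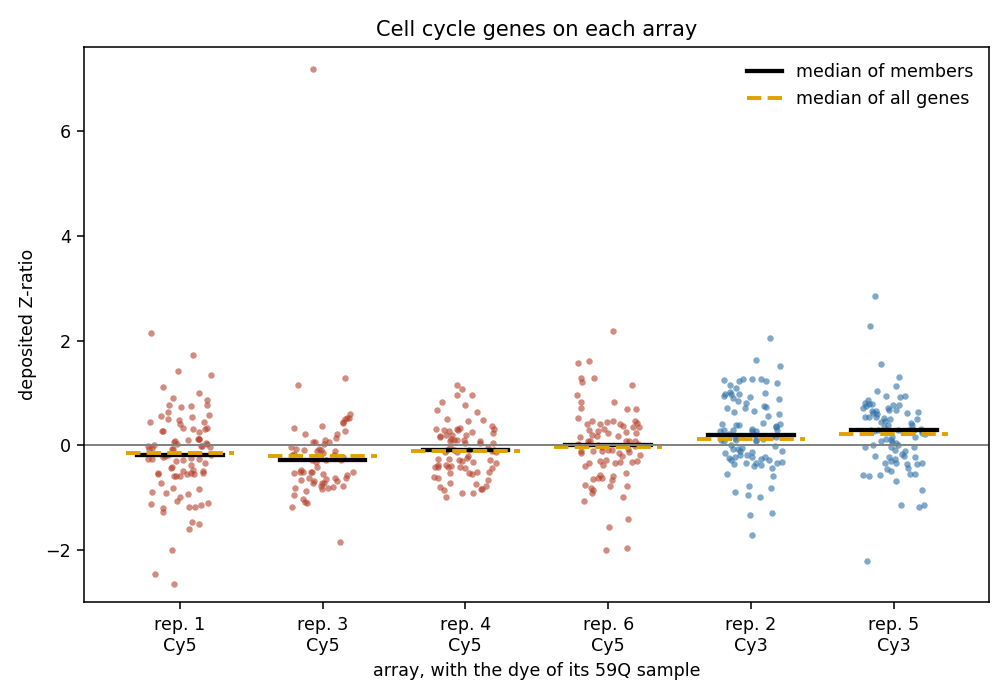
Deposited Z-ratio (vertical axis) of each cell cycle gene with a value (points) on the 6 arrays, red with 59Q in Cy5 and blue with 59Q in Cy3. Black bars are the medians of the members and dashed bars those of all genes, and both medians lie close together beside the spread of the points on every array. The point at 7.18 on replicate 3 is Cenpb.

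Beyond a Z-ratio of 1.96 in size, the threshold the study's methods name, lay 12 members on a single array each and 0 members on 2 arrays or more. On the single arrays 0 to 4.30% of the members measured lay beyond it, against 2.09 to 3.49% of all genes. No member reached it with its mean under either reading, and 17 of the 6463 genes tested did as deposited. The widest value was that of Cenpb, which encodes a protein that binds centromeric repeat DNA: it had Z-ratios of -1.06, 7.18, 0.481 and -0.345 with 59Q in Cy5 and 0.557 and -0.349 with 59Q in Cy3. Its mean of 1.08 ± 3.05 as deposited (SD, n = 6; p adjusted in limma = 0.999) stands beside 5 values between -1.06 and 0.557 and that of replicate 3. Anapc5 and Anapc7, both scaffold subunits of the APC/C, were the lowest and the highest member of replicate 1, at -2.64 and 2.15.

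**Figure D2:**
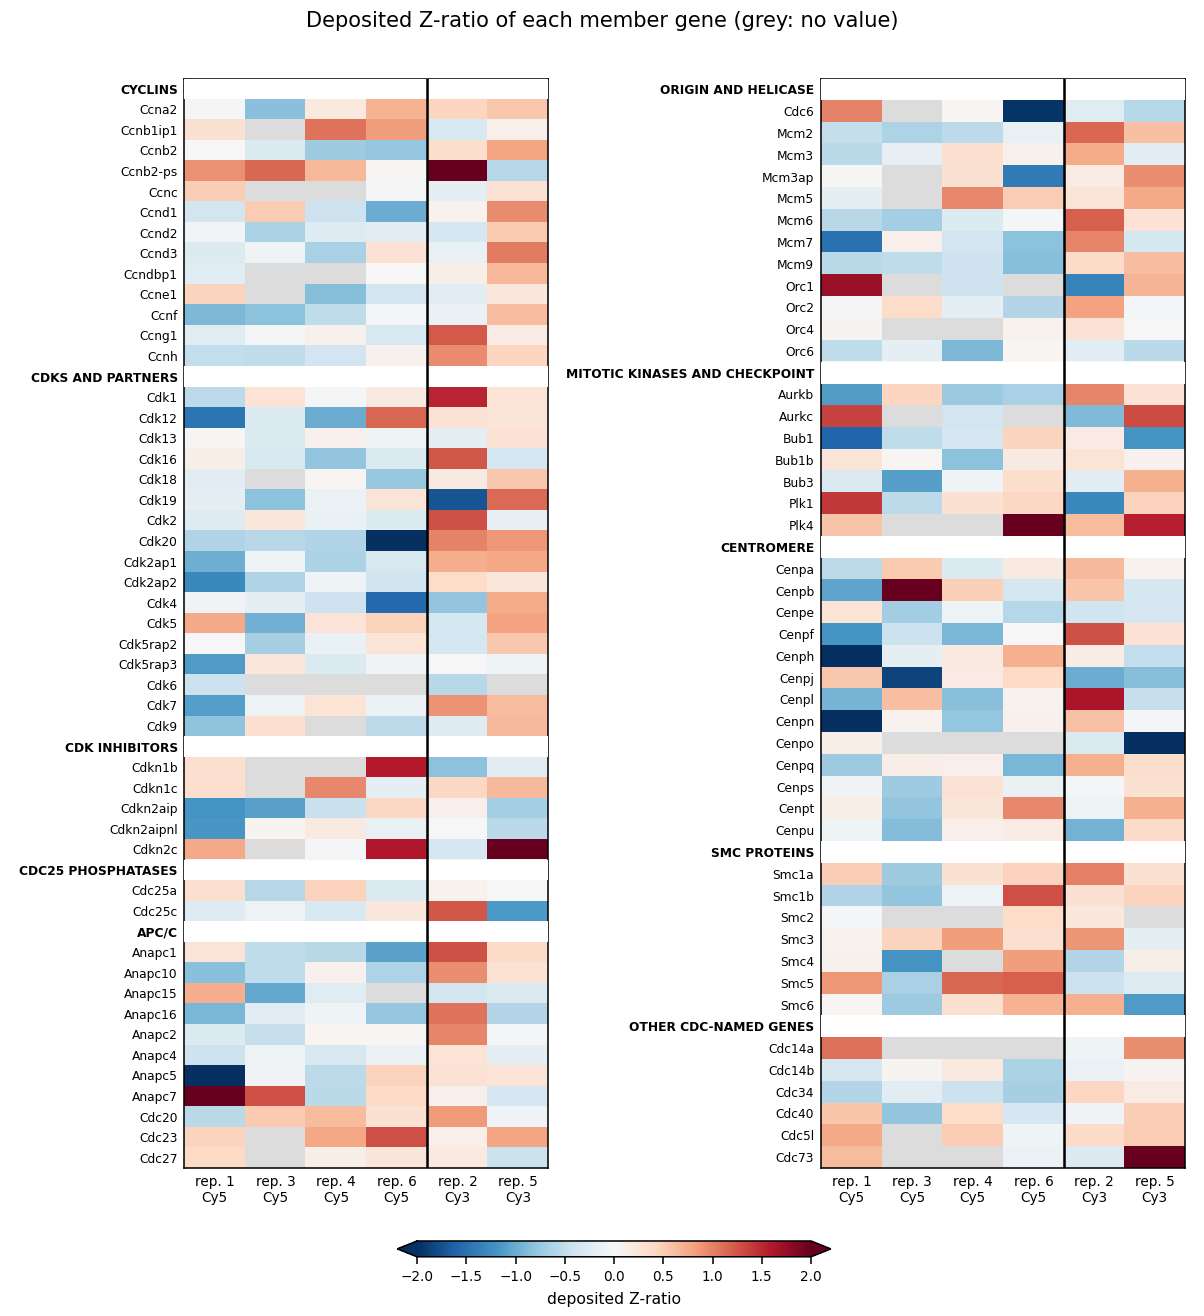
Deposited Z-ratio (colour, red above and blue below 0, saturated beyond 2) of all 93 members (rows, by role) on the 4 arrays with 59Q in Cy5 (left of the line) and the 2 with 59Q in Cy3 (right of it), with grey where no value was given. Below 0 on every array left of the line and above 0 on both right of it are 9 rows. They are 13.4% of the members with 6 values, against 11.2% of all genes with 6 values. Few rows keep a colour throughout.

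Among the 13 cyclins and cyclin-named genes, 8 had a mean above 0 as deposited, and 10 lay below 0 in the Cy5/Cy3 reading. Over all genes 56.9% lay below 0 as deposited and 65.4% in the Cy5/Cy3 reading. The median of the group on the single arrays was -0.0587, -0.284, -0.378 and -0.0179 with 59Q in Cy5 and 0.0761 and 0.516 with 59Q in Cy3. Ccnb2, a mitotic cyclin whose promoter is shown above, had Z-ratios of -0.0136, -0.284, -0.716 and -0.777 with 59Q in Cy5 and 0.351 and 0.789 with 59Q in Cy3. The 4 arrays with 59Q in Cy5 did not overlap with the others, and the mean was -0.108 ± 0.612 as deposited and -0.488 ± 0.320 in the Cy5/Cy3 reading (SD, n = 6 arrays; p adjusted in limma = 0.999 and 0.204). For Ccnh, the cyclin of the CDK-activating kinase and of TFIIH, the values were -0.490, -0.505, -0.378 and 0.0866 with 59Q in Cy5 and 0.939 and 0.429 with 59Q in Cy3. Its mean was -0.443 ± 0.328 in the Cy5/Cy3 reading (SD, n = 6; p adjusted in limma = 0.231) and near 0 as deposited, at 0.0136. Ccnf, a cyclin that serves as an F-box subunit of a ubiquitin ligase, had values of -0.895, -0.814, -0.503 and -0.0179 with 59Q in Cy5 and -0.129 and 0.622 with 59Q in Cy3. All of its Cy5 values lay below 0, and the Cy3 values fell on either side. Its 2 clones differed with 59Q in Cy5. The first had values of 0.161, -0.814, 0.225 and 0.441, and the other of -1.95, -1.23 and -0.477 on replicates 1, 4 and 6.

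The 4 G1 cyclins had means below 0 in the Cy5/Cy3 reading and on either side of 0 as deposited, within their SD in both. Ccnd1, the D-type cyclin induced by growth factors, had Z-ratios of -0.374, 0.505, -0.422 and -0.984 with 59Q in Cy5 and 0.0761 and 0.938 with 59Q in Cy3. The orientations overlapped, and the mean was -0.0436 ± 0.695 as deposited and -0.382 ± 0.557 in the Cy5/Cy3 reading (SD, n = 6 arrays; p adjusted in limma = 0.999 and 0.374). Ccnd2, with 6 clones, had a mean of -0.165 ± 0.383 as deposited and -0.221 ± 0.347 in the Cy5/Cy3 reading, and Ccnd3, with 2 clones, of 0.0265 ± 0.582 and -0.269 ± 0.503 (SD, n = 6 each). Ccne1, the cyclin of S phase entry, had -0.159 ± 0.509 and -0.151 ± 0.512 (SD, n = 5). Ccna2, the cyclin of S and G2 phase, had values of -0.0376, -0.839, 0.200 and 0.693 with 59Q in Cy5 and 0.423 and 0.538 with 59Q in Cy3. Its 3 clones gave values on all arrays, with the lowest of each on replicate 3. Ccnb2-ps, named as a pseudogene of Ccnb2, lay above 0 on 5 of 6 arrays, at 0.907, 1.15, 0.670 and 0.0186 with 59Q in Cy5 and 2.05 and -0.567 with 59Q in Cy3. Its mean was 0.705 ± 0.911 as deposited (SD, n = 6; p adjusted in limma = 0.999). A cDNA of one can take up transcripts of the other, so that neither value is certain. Ccnb1ip1, which acts at meiotic crossovers, had values of 0.309, 1.08 and 0.833 with 59Q in Cy5 (replicates 1, 4 and 6) and -0.320 and 0.105 with 59Q in Cy3 (replicates 2 and 5) and the highest mean of the group in the Cy5/Cy3 reading, 0.487 ± 0.469 (SD, n = 5; p adjusted in limma = 0.287).

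Of the 16 CDKs and CDK partners tested, 15 lay below 0 in the Cy5/Cy3 reading, with a group median of -0.324, and 12 lay below 0 as deposited, with a median of -0.0776. Among all genes 65.4% and 56.9% lay below 0 in these readings, with medians of -0.160 and -0.0449. The only member of the group above 0 in the Cy5/Cy3 reading was Cdk5, the neuronal CDK, at 0.0111 ± 0.714 (SD, n = 6). The group median was -0.427, -0.282, -0.126 and -0.193 where 59Q was in Cy5 and 0.184 and 0.538 where it was in Cy3. Cdk20, the cell cycle related kinase that can activate Cdk2 and acts at the primary cilium, had the smallest p of all members in the Cy5/Cy3 reading, with Z-ratios of -0.594, -0.548, -0.599 and -1.996 with 59Q in Cy5 and 0.999 and 0.866 with 59Q in Cy3. Every Cy5 value lay below 0 and every Cy3 value above it, and the mean was -0.312 ± 1.11 as deposited and -0.934 ± 0.550 in the Cy5/Cy3 reading (SD, n = 6 arrays; p adjusted in limma = 0.999 and 0.106). Replicate 6 lay farthest out, and without it the mean as deposited was 0.0248. Cdk2ap1, an inhibitor of Cdk2 that also belongs to the NuRD chromatin complex, had values of -0.984, -0.101, -0.626 and -0.327 with 59Q in Cy5 and 0.727 and 0.769 with 59Q in Cy3. Cdk2ap2, its paralog, had values of -1.28, -0.621, -0.0934 and -0.391 with 59Q in Cy5 and 0.371 and 0.231 with 59Q in Cy3. The orientations did not overlap in either gene, and the means in the Cy5/Cy3 reading were -0.589 ± 0.321 and -0.499 ± 0.423 (SD, n = 6 each; p adjusted in limma = 0.159 and 0.220).

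For the kinases that carry the cycle itself, each mean was smaller than its SD under the readings given. Cdk1, the kinase of mitosis, had Z-ratios of -0.526, 0.277, -0.0240 and 0.184 with 59Q in Cy5 and 1.52 and 0.280 with 59Q in Cy3. Its values overlapped between orientations, and the mean was 0.285 ± 0.675 as deposited and -0.314 ± 0.659 in the Cy5/Cy3 reading (SD, n = 6 arrays; p adjusted in limma = 0.999 and 0.498). Cdk2, the kinase of S phase, had a mean of 0.109 ± 0.598 as deposited (SD, n = 6). Cdk4, the partner of the D-type cyclins, had values of -0.0733, -0.187, -0.408 and -1.56 with 59Q in Cy5 and -0.786 and 0.747 with 59Q in Cy3. It lay below 0 on 5 of 6 arrays, with a mean of -0.378 ± 0.770 as deposited (SD, n = 6; p adjusted in limma = 0.999). Cdk7, which is the CDK-activating kinase with Ccnh, had a mean of -0.431 ± 0.534 in the Cy5/Cy3 reading (SD, n = 6; p adjusted in limma = 0.310), close to that of Ccnh. Cdk9 and Cdk12, kinases of transcription elongation, had -0.277 ± 0.536 (n = 5) and -0.356 ± 0.884 (n = 6; SD) in the same reading.

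**Figure D3:**
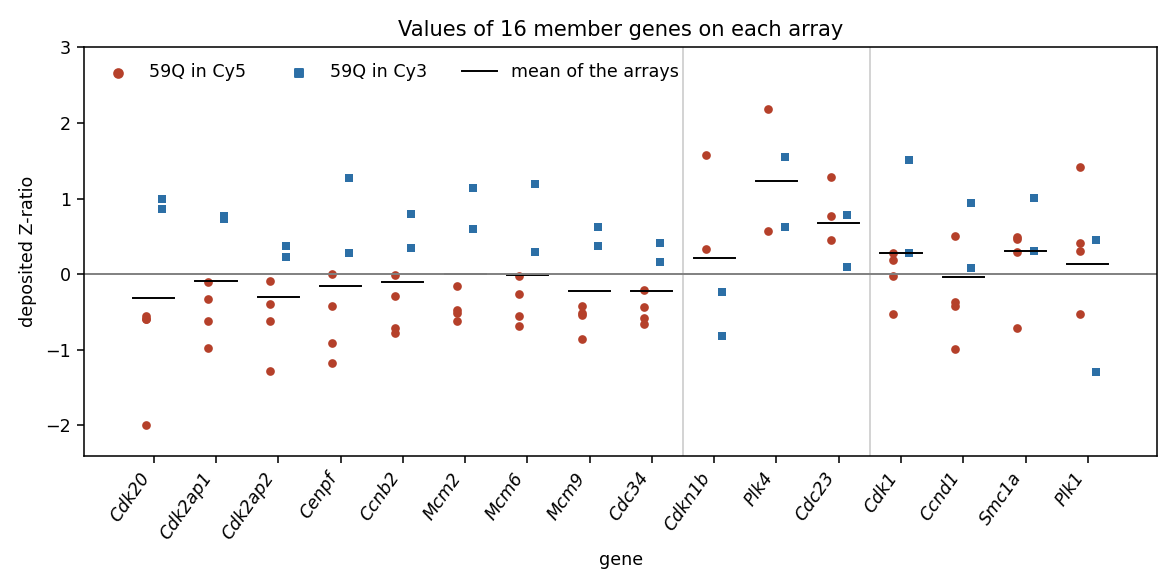
Deposited Z-ratio (vertical axis) of 16 genes on each array, with circles for 59Q in Cy5, squares for 59Q in Cy3 and a bar for the mean. In the 9 genes at the left all circles lie below 0 and both squares above it, in Plk4 and Cdc23 all points lie above 0, and Cdk1, Ccnd1, Smc1a and Plk1 have points on either side.

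Of the 5 Cdkn genes tested, 3 lay above 0 under each reading: Cdkn1b, Cdkn1c and Cdkn2c, CDK inhibitors that brake the cycle. In the Cy5/Cy3 reading Cdkn1c and Cdkn2c lay near 0, at 0.00881 and 0.0755. Cdkn2aip and Cdkn2aipnl, below 0 under each reading, are counted here by their symbols and are not themselves CDK inhibitors. Both Cdc25 phosphatases, which release the CDKs, lay below 0 under each reading. So did 56.9% of all genes as deposited and 65.4% in the Cy5/Cy3 reading. Cdkn1b, or p27, an inhibitor of the G1 and S phase CDKs, had Z-ratios of 0.328 and 1.58 with 59Q in Cy5 (replicates 1 and 6) and -0.822 and -0.233 with 59Q in Cy3 (replicates 2 and 5). It was the single member above 0 at an unadjusted p under 0.05 in the Cy5/Cy3 reading: its mean in this reading was 0.740 ± 0.616 (SD, n = 4; p adjusted in limma = 0.226) and 0.213 ± 1.02 as deposited. Cdkn2c, or p18, an inhibitor of Cdk4 and Cdk6, had values of 0.752, -0.0454 and 1.60 with 59Q in Cy5 (replicates 1, 4 and 6) and -0.342 and 2.28 with 59Q in Cy3 (replicates 2 and 5). Its mean as deposited was 0.849 ± 1.10 (SD, n = 5; p adjusted in limma = 0.999), with the highest values on replicates 5 and 6. Cdkn1c, or p57, had 0.433 ± 0.426 (SD, n = 5). Cdkn2aip, the member with the TATA box shown above, had values of -1.20, -1.08, -0.442 and 0.420 with 59Q in Cy5 and 0.105 and -0.687 with 59Q in Cy3 and a mean of -0.480 ± 0.644 (SD, n = 6; p adjusted in limma = 0.999). Cdc25a, the phosphatase of S phase entry, had a mean of -0.00173 ± 0.383 over 4 clones, and Cdc25c, that of mitotic entry, of -0.0568 ± 0.780 (SD, n = 6 each).

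Of the 12 origin and helicase genes, with Mcm3ap counted among them by its symbol although it acts in mRNA export, 6 lay above and 6 below 0 as deposited, and 10 lay below 0 in the Cy5/Cy3 reading. The shares of all genes below 0 were 56.9% as deposited and 65.4% in the Cy5/Cy3 reading. Mcm2, a subunit of the hexameric replicative helicase, had Z-ratios of -0.479, -0.618, -0.518 and -0.152 with 59Q in Cy5 and 1.14 and 0.598 with 59Q in Cy3. Mcm6, its neighbour in the ring, had values of -0.553, -0.685, -0.268 and -0.0208 with 59Q in Cy5 and 1.19 and 0.287 with 59Q in Cy3. Mcm9, a helicase of DNA repair, had values of -0.541, -0.511, -0.415 and -0.858 with 59Q in Cy5 and 0.378 and 0.620 with 59Q in Cy3. All 3 genes lay below 0 on every array with 59Q in Cy5 and above 0 on both arrays with 59Q in Cy3. Their means in the Cy5/Cy3 reading were -0.584 ± 0.321, -0.501 ± 0.411 and -0.554 ± 0.173, and as deposited -0.00427 ± 0.716, -0.00816 ± 0.685 and -0.221 ± 0.582 (SD, n = 6 each; p adjusted in limma = 0.159, 0.215 and 0.155 in the Cy5/Cy3 reading and 0.999 for each as deposited). Mcm9 had the smallest SD of the 3 in the Cy5/Cy3 reading. Mcm7 was split in the same direction except on 2 arrays, with values of -1.50, 0.0978, -0.390 and -0.826 with 59Q in Cy5 and 0.977 and -0.353 with 59Q in Cy3. Mcm3 and Mcm5, the other subunits of the ring on the array, had means of -0.134 ± 0.432 (n = 6) and 0.0513 ± 0.685 (n = 5; SD) in the Cy5/Cy3 reading, and Mcm5 lay above 0 as deposited, at 0.463 ± 0.452. Members of the origin recognition complex differed in this split. Orc6 lay below 0 on 5 of 6 arrays, at -0.501, -0.175, -0.905 and 0.0329 with 59Q in Cy5 and -0.219 and -0.545 with 59Q in Cy3. Orc2 had the sign of Mcm7 on every array, at -0.0197, 0.367, -0.201 and -0.591 with 59Q in Cy5 and 0.810 and -0.0333 with 59Q in Cy3. Its mean was 0.0554 ± 0.482 as deposited and -0.204 ± 0.432 in the Cy5/Cy3 reading (SD, n = 6). Orc4 had a mean of 0.106 ± 0.129 as deposited (SD, n = 4), but the means of its 4 clones ran from -0.261 to 0.579. Orc1 ran from -1.34 to 1.72 over 4 arrays and Cdc6, the loader of the helicase, from -1.96 to 0.991 over 5 arrays.

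Among the mitotic kinases and checkpoint genes, Plk4 had the highest mean of all 89 members as deposited. This kinase starts the duplication of the centriole. Its clone had Z-ratios of 0.573 and 2.18 with 59Q in Cy5 (replicates 1 and 6) and 0.630 and 1.55 with 59Q in Cy3 (replicates 2 and 5) and no value on replicates 3 and 4. All 4 values lay above 0, at a mean of 1.23 ± 0.775 (SD over 4 arrays). Its limma p was 0.00704 before and 0.999 after adjustment over all genes, the rank 12 of 6463 by p. In the Cy5/Cy3 reading the mean was 0.144 ± 1.61. The exact 2-sided sign-flip permutation test gave p = 0.125, the smallest that 4 arrays allow. Plk1, the kinase of mitotic entry and spindle assembly, had values of 1.41, -0.525, 0.309 and 0.415 with 59Q in Cy5 and -1.29 and 0.454 with 59Q in Cy3. They spread to either side of 0, and the mean was 0.129 ± 0.928 as deposited and 0.408 ± 0.825 in the Cy5/Cy3 reading (SD, n = 6 arrays; p adjusted in limma = 0.999 and 0.444). Aurkb, the kinase of the chromosomal passenger complex, had values of -1.12, 0.432, -0.737 and -0.644 with 59Q in Cy5 and 0.974 and 0.291 with 59Q in Cy3. Its mean in the Cy5/Cy3 reading was -0.556 ± 0.563 (SD, n = 6; p adjusted in limma = 0.226), with replicate 3 on the other side. Bub1, the spindle checkpoint kinase, had the lowest mean of the 89 members tested as deposited, -0.501 ± 0.777 (SD, n = 6; p adjusted in limma = 0.999), with values of -1.59, -0.508, -0.343 and 0.449 with 59Q in Cy5 and 0.166 and -1.18 with 59Q in Cy3. Bub1b and Bub3, its partners in the checkpoint, had means of 0.000902 ± 0.417 and -0.112 ± 0.618 (SD, n = 6 each).

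**Figure D4:**
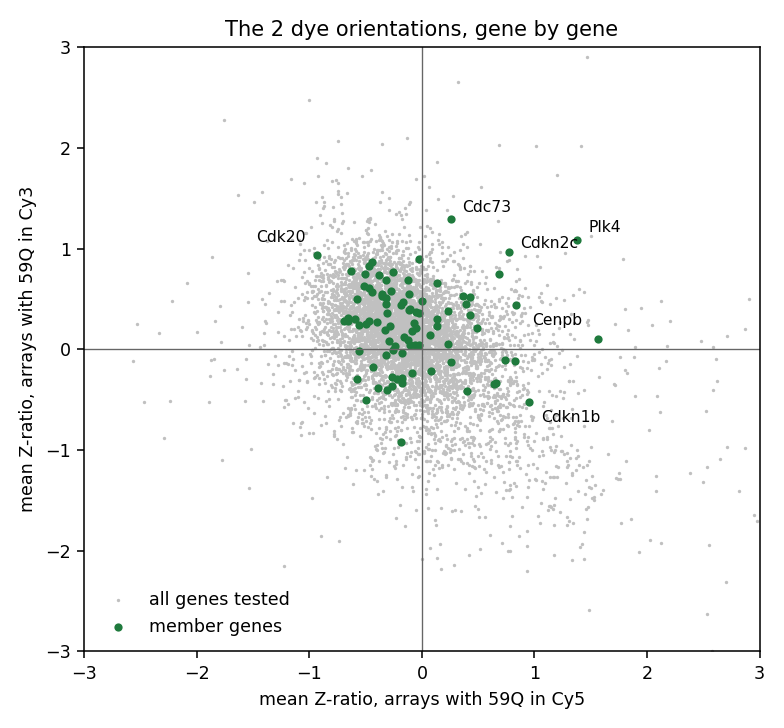
Mean Z-ratio of each gene over the arrays with 59Q in Cy5 (horizontal axis) and with 59Q in Cy3 (vertical axis), with members in green over all 6463 genes tested in grey. The members lie within the cloud of all genes, and 30 genes beyond 3 in size, of which 0 are members, are not drawn.

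Of the 11 APC/C genes, 6 lay below 0 as deposited and 6 in the Cy5/Cy3 reading, against 56.9% and 65.4% of all genes. They were not all the same genes. Anapc15 lay below 0 only as deposited, at -0.241 against 0.0248. Anapc2 lay below 0 only in the Cy5/Cy3 reading, at -0.266 against 0.0449 as deposited. Cdc23, a scaffold subunit, was the other member past an unadjusted p of 0.05 as deposited, with Z-ratios of 0.446, 0.767 and 1.29 with 59Q in Cy5 (replicates 1, 4 and 6) and 0.0995 and 0.788 with 59Q in Cy3 (replicates 2 and 5). All 5 values of the gene lay above 0, although its 2 clones were of mixed sign on replicates 1 and 2 and replicates 5 and 6 rest on 1 clone, at a mean of 0.678 ± 0.443 (SD over 5 arrays). Its limma p was 0.0281 before and 0.999 after adjustment, and the exact sign-flip permutation p, which takes the arrays as independent, was 0.0625, the smallest that 5 arrays allow. The mean in the Cy5/Cy3 reading was 0.323 ± 0.800. Anapc1, the largest scaffold subunit, had values of 0.256, -0.512, -0.549 and -1.07 with 59Q in Cy5 and 1.27 and 0.383 with 59Q in Cy3. Anapc10, which helps to hold the substrate, had values of -0.841, -0.508, 0.0851 and -0.621 with 59Q in Cy5 and 0.929 and 0.286 with 59Q in Cy3. Each of the pair crossed 0 on a single Cy5 array, and their means in the Cy5/Cy3 reading were -0.588 ± 0.541 and -0.517 ± 0.375 (SD, n = 6 each; p adjusted in limma = 0.206 and 0.200). Anapc7 lay above 0 in both readings, at 0.512 ± 1.03 and 0.589 ± 0.977 (SD, n = 6; p adjusted in limma = 0.999 and 0.345). Cdc20, the activator of the complex at the spindle checkpoint, and Cdc27, a scaffold subunit, had means of 0.282 ± 0.512 (n = 6) and 0.104 ± 0.320 (n = 5; SD) as deposited.

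Of the 12 centromere genes tested, 8 lay below 0 as deposited and 10 in the Cy5/Cy3 reading, against 56.9% and 65.4% of all genes. Cenpf, a kinetochore protein that accumulates in G2, had Z-ratios of -1.17, -0.422, -0.917 and -0.00184 with 59Q in Cy5 and 1.27 and 0.285 with 59Q in Cy3. Both orientations kept to their side of 0, although replicate 6 lay next to it, and the mean was -0.160 ± 0.887 as deposited and -0.678 ± 0.516 in the Cy5/Cy3 reading (SD, n = 6 arrays; p adjusted in limma = 0.999 and 0.164). Cenpe, the kinesin motor of the kinetochore, lay below 0 on 5 of 6 arrays, at 0.280, -0.688, -0.0893 and -0.576 with 59Q in Cy5 and -0.398 and -0.336 with 59Q in Cy3. Its mean as deposited was -0.301 ± 0.352 (SD, n = 6; p adjusted in limma = 0.999). The 2 clones of Cenpe were of opposite sign on replicates 1, 2 and 5, at 1.42 and -0.860, -1.04 and 0.239, and -0.939 and 0.267. Replicates 3, 4 and 6 rest on 1 clone. Cenpj, which acts at the centriole and not at the centromere, had values of 0.536, -1.85, 0.157 and 0.402 with 59Q in Cy5 and -0.986 and -0.857 with 59Q in Cy3. On replicate 3 it lay apart from the other Cy5 arrays. Cenpa, the histone H3 variant that marks the centromere, lay close to 0, with a mean of 0.104 ± 0.454 as deposited (SD, n = 6). Cenpq, of the constitutive centromere network, had -0.411 ± 0.448 in the Cy5/Cy3 reading (SD, n = 6; p adjusted in limma = 0.299). Cenpn and Cenph, of the same network, had their lowest values on replicate 1, at -1.99 and -2.46.

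Of the 6 SMC genes tested, 4 lay above 0 as deposited (Smc1a, Smc1b, Smc3 and Smc5) and 4 in the Cy5/Cy3 reading (Smc3, Smc4, Smc5 and Smc6). Only Smc3 and Smc5 did so in both. Below 0 lay 56.9% of all genes as deposited and 65.4% in the Cy5/Cy3 reading. Smc3, a core subunit of cohesin, had Z-ratios of 0.0753, 0.451, 0.828 and 0.339 with 59Q in Cy5 and 0.877 and -0.198 with 59Q in Cy3. It lay above 0 on 5 of 6 arrays, and the mean was 0.396 ± 0.419 as deposited and 0.169 ± 0.574 in the Cy5/Cy3 reading (SD, n = 6 arrays; p adjusted in limma = 0.999 and 0.705). Smc1a, its partner in the ring, had values of 0.494, -0.713, 0.297 and 0.465 with 59Q in Cy5 and 1.01 and 0.301 with 59Q in Cy3. On replicate 3 the value came from 1 of the 2 clones, and the mean was 0.309 ± 0.565 as deposited (SD, n = 6; p adjusted in limma = 0.999). Smc5, of the Smc5/6 repair complex, had values of 0.869, -0.643, 1.15 and 1.20 with 59Q in Cy5 and -0.430 and -0.253 with 59Q in Cy3. Its mean in the Cy5/Cy3 reading was 0.544 ± 0.694 (SD, n = 6; p adjusted in limma = 0.281), whereas Smc6, with which it forms the complex, had 0.124 ± 0.752 (SD, n = 6). Smc4, of condensin, had a mean of -0.145 ± 0.766 over 3 clones as deposited (SD, n = 5), and Smc1b, the meiotic form of Smc1a, 0.0919 ± 0.760 (SD, n = 6). On replicate 6 all 7 SMC genes lay above 0, and on replicate 3 only Smc3 of the 6 measured did, against 48.3% and 37.0% of all genes. The clones differed in sign on replicate 6, at 0.162, -0.784 and 3.12 for Smc4 and -0.493 and 3.07 for Smc1b.

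Of the remaining Cdc-named genes, Cdc34, a ubiquitin-conjugating enzyme of the SCF ligases that clear CDK inhibitors, had Z-ratios of -0.580, -0.216, -0.435 and -0.659 with 59Q in Cy5 and 0.408 and 0.163 with 59Q in Cy3. The orientations did not overlap and the mean in the Cy5/Cy3 reading was -0.410 ± 0.195 (SD, n = 6; p adjusted in limma = 0.226). Its 2 clones were not of 1 sign throughout. Cdc73, of the Paf1 complex of transcription elongation, had values of 0.630 and -0.119 with 59Q in Cy5 (replicates 1 and 6) and -0.272 and 2.85 with 59Q in Cy3 (replicates 2 and 5), and its mean was 0.773 ± 1.44 as deposited and -0.518 ± 1.59 in the Cy5/Cy3 reading (SD, n = 4; p adjusted in limma = 0.999 and 0.617). The readings differ by the sign of replicates 2 and 5. Cdc5l, of the splicing machinery, had a mean of 0.416 ± 0.313 as deposited (SD, n = 5; p adjusted in limma = 0.999). Cdc14b and Cdc40, a phosphatase and a splicing factor, had -0.129 ± 0.306 and 0.0348 ± 0.535 (SD, n = 6 each).

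Some members split by dye on all 6 arrays. Of the 67 members with 6 values, 9 (13.4%) lay below 0 on every array with 59Q in Cy5 and above 0 on both with 59Q in Cy3: Ccnb2, Cdc34, Cdk20, Cdk2ap1, Cdk2ap2, Cenpf, Mcm2, Mcm6 and Mcm9. The same split was found in 11.2% of the 4926 genes with 6 values, so the share of the members was near that of the array. The opposite split was found in 0 members. Over all 89 members tested, on 4 arrays or more, 1 lay above 0 (4.67% of all genes did) and 9 below 0 (10.8%) on every array measured in the Cy5/Cy3 reading, and 2 above 0 (1.64%) and 0 below 0 (1.41%) as deposited. As deposited none of the 9 lay off 0 by more than its SD, with means of -0.312 to -0.00427. This follows largely from how they were picked, since values of opposite sign in the 2 orientations offset each other in that mean. For such a gene a lower transcript in 59Q and an effect of the dye cannot be told apart. With array medians subtracted, the median of the dye difference of all genes moved to -0.161, against -0.317 without, and the medians of the CDKs, cyclins and origin genes to -0.508, -0.369 and -0.257, against -0.667, -0.500 and -0.416 without. The SMC genes lay on the other side, at 0.118 and 0.280 with array medians subtracted, which turned to -0.0155 with the median of clones in place of the mean, to -0.406 without replicate 5 and to -0.111 without replicate 6.

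The clones of a gene often differed. Of the 93 genes, 63 had 1 clone and 30 had more, up to 6 for Ccnd2. On the same array 2 clones of a member differed by a median of 0.731, against 0.224 between the 2 spots of a clone. Of the 46 pairs of clones with at least 5 shared arrays, 23 had a Pearson's r below 0 across arrays, with a median r of 0.0190, as a description over so few arrays, and 34 of all 69 pairs had means on opposite sides of 0. The most opposed pairs belonged to Ccnd2 and Anapc4. Ccnd2 values on replicate 1 were 0.367, 0.988, -0.882, 0.666, -0.927 and -0.563 in its 6 clones. All 8 members whose clones kept 1 sign below 0 on every array in the Cy5/Cy3 reading had a single clone, and so did Plk4, above 0 as deposited, and Cdkn1b, above 0 in the Cy5/Cy3 reading. Tested clone by clone, 0 of 128 member clones were called under either reading, where 0% of all 14418 clones were called as deposited and 1.89% higher and 0.0486% lower in the Cy5/Cy3 reading.

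**Figure D5:**
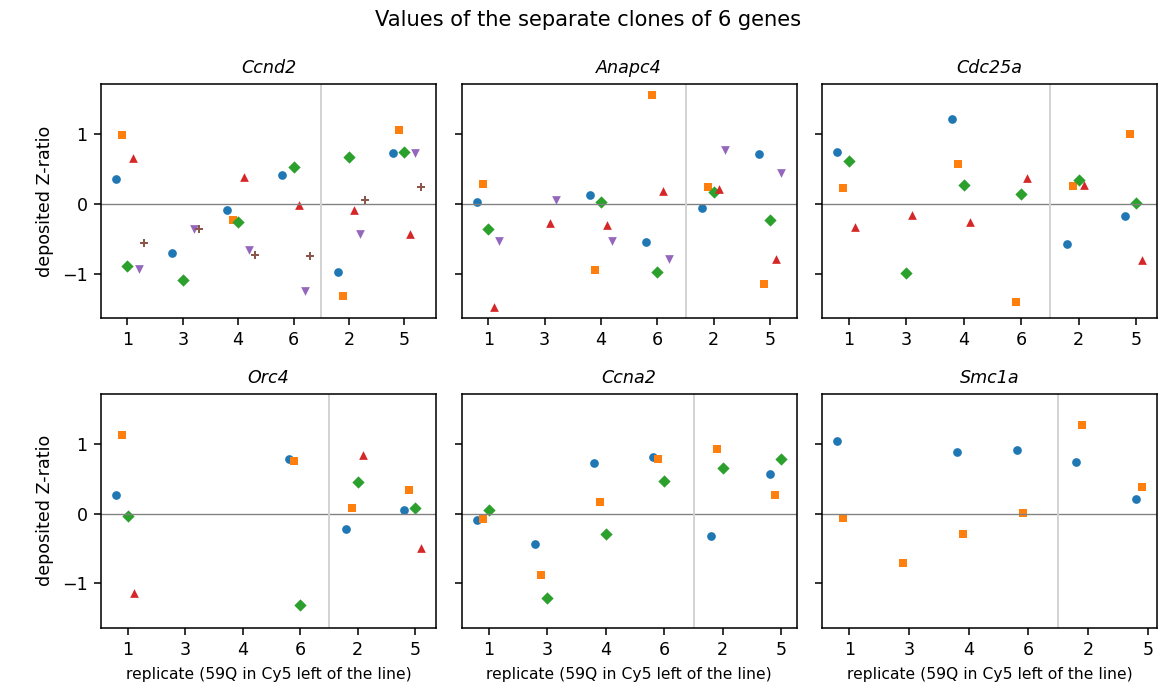
Deposited Z-ratio (vertical axis) of the separate clones (1 marker shape each) of 6 members on each array (horizontal axis), with 59Q in Cy5 left of the line. The 3 clones of Ccna2 all have their lowest value on replicate 3, while those of Ccnd2 lie on either side of 0 on replicate 1.

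Values also went with the place of a clone in the probe order. In the first of 48 equal stretches of probes, the median of all clones was 0.954, -0.627, 0.368 and 0.379 on replicates 1, 3, 4 and 6 and -0.652 and 0.632 on replicates 2 and 5. The Plk1 clone lies in that stretch and had the sign of its median on all 6 arrays. Cdk20 on replicate 6, at -1.996, lies in a stretch whose median there was -1.51. With the median of each stretch subtracted on each array, the mean of Cdk20 in the Cy5/Cy3 reading was -0.494 (p adjusted in limma = 0.108), that of Plk4 as deposited 0.883 (p adjusted in limma = 1.00), and 9 members lay below 0 at an unadjusted p under 0.05 in the Cy5/Cy3 reading, against 14 without the subtraction and against 10.7% of all genes with it. The part of place in any single value was not tested.

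Further genes of division were taken from lists of partners of the members. None of 22 further replication genes (such as Pcna, the replication clamp, and the polymerase and GINS subunits), 17 genes of G1/S control, 16 partners of cohesin and condensin and 25 spindle and kinetochore genes was called by limma under either reading. At an unadjusted p under 0.05 there were 1 gene below 0 as deposited, in G1/S control, and, in the Cy5/Cy3 reading, 3, 2, 2 and 2 genes below 0 and 0, 1, 1 and 0 above 0 in the 4 lists in that order. Over all genes 1.64% lay below 0 at that level as deposited, a share that 1 gene in a list of 17 already exceeds. In the Cy5/Cy3 reading 13.4% of all genes lay below and 6.42% above 0 at that level. The lists' counts in this reading were near or under the share of the array. Their medians as deposited were 0.0731, 0.0741, 0.0314 and 0.0441, and in the Cy5/Cy3 reading -0.163, -0.290, -0.306 and -0.109, against -0.0449 and -0.160 over all genes. E2f6, a repressor of E2F target genes, lay below 0 on all arrays, at -1.28, -0.754, -0.524 and -0.648 with 59Q in Cy5 and -0.0594 and -0.692 with 59Q in Cy3. Its mean was -0.659 ± 0.392 as deposited (SD, n = 6; p adjusted in limma = 0.999). E2f8, a repressor of the same family, had values of 0.718, 0.343, 0.690 and 1.12 with 59Q in Cy5 and -1.18 and -1.25 with 59Q in Cy3, and its mean in the Cy5/Cy3 reading was 0.883 ± 0.356 (SD, n = 6; p adjusted in limma = 0.0859). Rad21, the subunit that closes the cohesin ring, had a mean of -0.476 ± 0.389 and Ncaph2, the corresponding subunit of condensin II, of -0.400 ± 0.223 in the same reading (SD, n = 6 and 6; p adjusted in limma = 0.226 and 0.239). Cdt1, which loads the helicase with Cdc6, had -0.449 ± 0.279 (SD, n = 6; p adjusted in limma = 0.215). Rfc2, a subunit of the clamp loader, and Rpa3, a subunit of the single-strand binding protein, had -0.617 ± 0.339 and -0.710 ± 0.675 (SD, n = 6 and 6; p adjusted in limma = 0.157 and 0.189). On the spindle, Mad1l1, a checkpoint protein, had -0.808 ± 0.756 and Racgap1, which acts in cytokinesis, -0.604 ± 0.665 (SD, n = 6 and 6; p adjusted in limma = 0.177 and 0.229). Ncapg, a subunit of condensin I, lay above 0 in the Cy5/Cy3 reading, at 0.612 ± 0.579 (SD, n = 6; p adjusted in limma = 0.206). As deposited the means of E2f8, Rad21, Ncaph2, Cdt1 and Rfc2 were 0.0741, -0.0384, -0.0210, -0.139 and -0.352. Those of Rpa3, Mad1l1, Racgap1 and Ncapg were 0.0627, -0.118, 0.122 and 0.253. Of the markers of the neuroblast lineage 5 of 16 were measured, of which 2 lay below 0 and 3 above 0 as deposited. In the Cy5/Cy3 reading 4 lay below 0, where 65.4% of all genes did, and 1 above 0. Th and Gata3 lay next to 0 in the Cy5/Cy3 reading, at -0.0422 and -0.0178. Gap43, a protein of growing axons, had -0.637 ± 0.605 (SD, n = 6; p adjusted in limma = 0.201), and the marker above 0 was Tubb3, a neuronal tubulin, at 1.28 ± 0.634 in the Cy5/Cy3 reading (SD, n = 6; p adjusted in limma = 0.0666). Gap43 and Tubb3 had means of -0.0428 and 0.568 as deposited. Of the markers of other cell types 9 of 21 were measured, of which 8 lay below 0 in the Cy5/Cy3 reading and 6 as deposited. Among all genes 65.4% and 56.9% did. None of either list was called, and as ratios they do not show whether a marker was present in the cells.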

How the data were processed

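Each of 6 two-colour cDNA arrays of 31200 spots compared RNA of 59Q and N3 cells. The authors labelled the RNA with the Micromax TSA kit, scanned with an Axon scanner, quantified with GenePix Pro and deposited a Z-ratio per spot, a score with a mean of 0 and an SD of 1 on each array. No software version is given in the sources used here. Intensities were not used here, and the number of arrays limits the precision. The methods speak of cultures of different batches, and the series text counts 4 biological replicates and 2 flip-dye pairs without naming the arrays, so the 6 arrays may not be independent and p-values measure the spread between these arrays, which may be technical in part.

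Both spots of a clone were averaged, then the clones of a gene. Probes were named through the platform annotation, with symbols updated by Entrez ID: 18384 spots had 1 symbol, 514 several and 12302 none. Genes with values on 4 or more arrays entered the test in limma 3.58.1 (R 4.3.3; lmFit and eBayes, Benjamini-Hochberg over all 6463 genes), checked on simulated data. Genes named were those with an unadjusted p under 0.05, the 2 with the smallest p in each role group and reading, preset genes (Cdk1, Ccnd1, Plk4, Smc1a), the clearest cases among clones, and examples from the 3 with the smallest p in each partner list. Other genes named were added after their values were seen. The members and lists were chosen with earlier results of these data known. Alternatives were other array sets, normalizations, filters, clone summaries and possible flip-dye pairings.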

Additional observations from a re-analysis of the deposited data

Results flagged for a closer look

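In 3 of the 31 named members with 4 values at 59Q in Cy5, 1 array lay apart from the other 3 by Dixon's criterion at the 95% level, which chance alone meets in about 1 of 20 groups. They were Cdk20 on replicate 6 at -1.996, Cenpj on replicate 3 at -1.85 and Smc1a on replicate 3 at -0.713. The median of 3 role groups lay below 0 on every array with 59Q in Cy5 and above 0 on both arrays with 59Q in Cy3. The median of all genes did the same. The mean with 59Q in Cy5 minus that with 59Q in Cy3 had a median of -0.667 in the CDKs and their partners, -0.500 in the cyclins and -0.416 in the origin and helicase genes, against -0.317 over all genes. In the lists of replication, G1/S, cohesin and condensin, and spindle partners it was -0.352, -0.574, -0.823 and -0.269. The difference between the orientations was not tested for these medians.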

How the results depend on the processing

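No member was called under any alternative run, in either reading or in the dye orientation difference. Leaving out each array in turn gave 0 calls throughout, and the median of the members ran from -0.138 to 0.0233 as deposited and from -0.207 to -0.139 in the Cy5/Cy3 reading. Members below 0 at an unadjusted p under 0.05 in the Cy5/Cy3 reading numbered 14 (13.4% of all genes lay there), against 8 (8.83%) with array medians subtracted, 9 (10.7%) with stretch medians subtracted (added after seeing the data) and 2 (4.62%) on replicates 3, 4 and 6 alone, which run the same way under every reading. Of 39 named members, 22 as deposited and 27 in the Cy5/Cy3 reading kept the sign of their mean under the 12 to 19 alternatives run for each, which leave out the flip-dye pairings and the test by clone. No paired analysis was possible because no replicate number is shared between groups, and each array already sets 59Q against N3. Taking flip-dye partners as 1 replicate, in each of the 12 ways they could be matched, gave 0 calls.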
